A study of Homo sapiens with 6 samples.

Results

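The genes described here were CD82, the tetraspanins CD9, CD63, CD81, TSPAN1, TSPAN3, TSPAN4, TSPAN14 and TSPAN15, and CD44, a receptor of the cell surface. They were chosen with earlier results of these data known. Their rows were picked by symbol from the table of gene counts. All 10 were found among its 25349 genes and passed the filter on low counts. The cells were SCC-9, an established line from a squamous cell carcinoma of the human tongue. In the siE7 group they received an siRNA aimed at exon 7 of MKI67, the gene that encodes the proliferation antigen Ki67, and in the siNC group a nonspecific siRNA. Both were given at 10 nM on day 0 and day 2. Each group had 3 RNA-seq libraries, so n = 3 for every mean below. The methods list several siRNAs against exon 7, and which of them went into these libraries was not stated. No labels state that the replicates were separate cultures, so the p-values measure the spread between these samples, which may be technical.

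Tetraspanins are small membrane proteins that cross the membrane several times and gather integrins, immunoglobulin-superfamily proteins and proteases into a network called the tetraspanin web. CD82, also named KAI1, was first described as a suppressor of metastasis and restrains integrins, the epidermal growth factor receptor and cell migration. CD9, CD63 and CD81 are common markers of extracellular vesicles, and TSPAN14 and TSPAN15 belong to the TspanC8 branch, which binds the protease ADAM10 and carries it to the cell surface. CD44 binds hyaluronan outside the cell and, through ezrin, radixin and moesin, the actin cytoskeleton inside it. It is made in many splice forms, and in squamous epithelium it is abundant on basal cells.

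The libraries held between 25608192 and 29550264 counts on genes. One library stood apart: the chi-square of its counts per degree of freedom was 61.1 and 72.7 between siE7 replicate 1 and the other siE7 libraries, which differed from each other by 6.22. For this reason the counts below and the values of the 10 genes are also given without it. MKI67 itself averaged 1059 ± 26.7 CPM (counts, scaled to the size of the library with TMM factors; SD) with siNC and 115 ± 8.70 CPM with siE7. The 7 squamous markers (keratins, TP63, CDH1 and EPCAM among them) summed to 16619 to 17410 CPM with siNC and 17003 to 22493 CPM with siE7, most of it KRT14. Of these markers CDH1, EPCAM, KRT5 and TP63 fell by 1.03, 0.77, 0.60 and 0.33 log2 units, KRT17 rose by 0.70, and KRT14 and KRT6A did not pass. The call of TP63 was lost without siE7 replicate 3, without any 1 siNC library, with a replicate block and without composition scaling, at -0.37 to -0.16. The part of these markers in the results was not tested. Markers of other cell types were low: 5 fibroblast genes summed to 16.5 to 19.6 CPM with siNC and 18.0 to 24.1 CPM with siE7, mostly from COL1A1, and 4 endothelial genes to 0.492 CPM at most. Of these fibroblast genes DCN had 0, 1 and 2 counts with siNC and 8, 11 and 19 with siE7, and its part in the results was not tested. Of the leukocyte markers only the tetraspanins CD37 and CD53 had values here, and they summed to 0.114 CPM at most. In bulk RNA, fewer cells that express a gene and less of its RNA per cell cannot be told apart.

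Of the 10 genes, 7 were lower with siE7 at an adjusted p under 0.05 and 0 were higher. These were CD82, CD44, CD9, TSPAN1, TSPAN4, TSPAN14 and TSPAN15. Among all 14661 tested genes 34.0% passed this test, 16.0% lower and 18.0% higher. This balance depends on the scaling: with library totals alone (no composition scaling) 11.1% were lower and 27.5% higher, while the same number of the 10 genes, 7, passed as lower. The test was edgeR's quasi-likelihood F-test, adjusted over all tested genes by the Benjamini-Hochberg method, and every adjusted p in the text comes from it unless another tool is named. SE below is the standard error of a log2 fold change. Of the 7 genes, 5 also changed by more than 1 on the log2 scale and so were downregulated differentially expressed genes (DEGs), as were 4.84% of all tested genes. For 9 of the 10 genes every siE7 library lay below every siNC library, against 22.7% of all tested genes. The median log2 fold change of the 10 genes was -0.86, against 0.08 over all tested genes. As the 10 genes were chosen with earlier results known, these shares describe them and do not test them as a set. Without siE7 replicate 1, all 10 passed as lower, beside 29.5% of the genes tested in that fit.

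**Figure D1:**
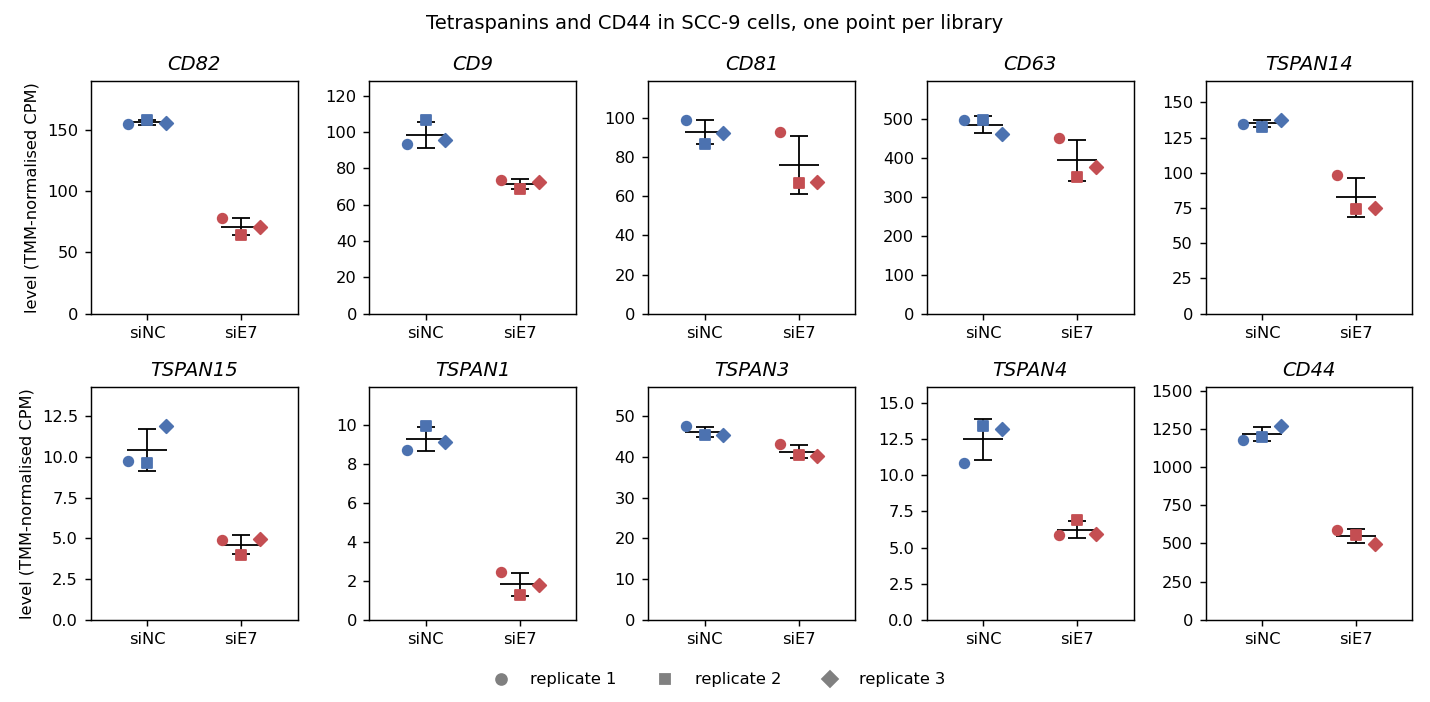
Level of each of the 10 genes in each library, in CPM scaled by TMM factors on a linear axis from 0, 1 panel per gene, with 1 point per library and a bar at the group mean ± SD. The siE7 points of CD82, CD44 and TSPAN1 lie well below the siNC points, and CD81 is the gene whose groups overlap, through siE7 replicate 1 at 92.8 CPM.

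CD82 (ENSG00000085117.12; GRCh38 chr11:44564427-44620358, plus strand) had 155, 158 and 155 CPM in siNC replicates 1, 2 and 3. In siE7 replicates 1, 2 and 3 it had 77.8, 64.3 and 71.0 CPM. The groups were widely separated, and the spread within each was small beside the gap. The means were 156 ± 1.81 CPM and 71.0 ± 6.75 CPM (SD, n = 3), so that CD82 stood at 45.5% of its siNC level. Its log2 fold change was -1.13 (SE 0.112, 95% confidence interval -1.38 to -0.89, adjusted p = 3.2e-05). Without siE7 replicate 1 it was -1.26. Scaled by library totals alone it was -0.97, and CD82 was then no DEG although it passed the test. The counts behind these levels ran from 1774 to 4101 per library, so counting error was small. An exon of CD82-AS1 on the other strand overlaps CD82. This neighbour has no values here, and whether strand was used in counting is not given in the sources used here.

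CD44 (ENSG00000026508.20; chr11:35138882-35232402, plus strand) had 1179.8, 1198 and 1270.1 CPM in siNC replicates 1, 2 and 3. The siE7 replicates held 589.7, 557 and 498 CPM. No siE7 library came near an siNC library. CD44 averaged 1216 ± 47.7 CPM with siNC and 548 ± 46.6 CPM with siE7 (SD, n = 3), and so kept 45.1% of its siNC level. The log2 fold change of CD44 was -1.15 (SE 0.108, 95% confidence interval -1.39 to -0.91, adjusted p = 2.2e-05). It was -1.27 without siE7 replicate 1 and -0.98 without composition scaling (library totals alone), where it was no DEG. CD44-AS1, which overlaps CD44 on the other strand, had at most 1 count per library. Exons of CD44-DT also overlap CD44 on the other strand, and this neighbour has no values here. Counts per gene sum all CD44 splice forms, so the standard form and the variant-exon forms were not separated.

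TSPAN1 (chr1:46175073-46185962, plus strand), an epithelial tetraspanin, had the largest fold change of the 10 genes. It had 8.71, 9.93 and 9.13 CPM in siNC replicates 1, 2 and 3, and 2.43, 1.27 and 1.77 CPM in the siE7 replicates. Every siE7 library was below every siNC library, and siE7 replicate 1 was the highest of its group. TSPAN1 fell by 2.34 on the log2 scale to 19.8% of the siNC level (SE 0.238, 95% confidence interval -2.86 to -1.82, adjusted p = 4.0e-05). The value was -2.66 without siE7 replicate 1. The siE7 libraries held 72, 35 and 54 counts of TSPAN1, so its level there is less precise than that of CD82.

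CD9 (chr12:6199715-6238271, plus strand), which pairs with integrins and with the immunoglobulin-superfamily proteins PTGFRN and IGSF8, changed less. Its levels were 93.3, 107 and 95.8 CPM with siNC and 73.8, 68.5 and 72.4 CPM with siE7. The groups did not overlap. The log2 fold change of CD9 was -0.46 (SE 0.110, 95% confidence interval -0.70 to -0.22, adjusted p = 0.0074), or 72.6% of the siNC level. It was -0.55 without siE7 replicate 1 (adjusted p = 3.9e-09). The call was lost without siNC replicate 2, the highest siNC library, where the fold change was -0.41 and the adjusted p 0.059 by the same test.

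CD63 (chr12:55725323-55729707, minus strand), the tetraspanin of late endosomes and lysosomes, had 498, 498 and 461 CPM with siNC and 453, 351 and 378 CPM with siE7. CD81 (chr11:2376177-2397802, plus strand), which associates with other tetraspanins and with PTGFRN and IGSF8, had 99.1, 86.6 and 92.5 CPM with siNC and 92.8, 66.9 and 67.5 CPM with siE7. In both genes siE7 replicate 1 was the highest siE7 library, for CD63 just below the lowest siNC library and for CD81 inside the siNC range. Neither passed the test: the log2 fold change was -0.30 for CD63 (95% confidence interval -0.56 to -0.04, adjusted p = 0.070) and -0.29 for CD81 (95% confidence interval -0.60 to 0.02, adjusted p = 0.13). Both passed without siE7 replicate 1, at -0.47 for CD63 (adjusted p = 5.8e-09) and -0.53 for CD81 (adjusted p = 6.7e-09). DESeq2 called CD63 with all 6 libraries, at -0.36 and an adjusted p of 0.043. CD81-AS1, on the other strand of CD81, had 25 to 59 counts per library, or 1.64% of the counts of CD81. Exons of CD63-AS1 overlap CD63 on the other strand, and this neighbour has no values here.

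TSPAN14 (chr10:80454265-80533124, plus strand), of the TspanC8 branch, had 135, 133 and 138 CPM with siNC and 98.2, 74.5 and 74.8 CPM with siE7. TSPAN15 (chr10:69451465-69507666, plus strand), of the same branch, had 9.72, 9.61 and 11.9 CPM with siNC and 4.89, 3.95 and 4.97 CPM with siE7. The groups were separate for both, and siE7 replicate 1 was the siE7 library nearest to siNC for TSPAN14 but not for TSPAN15. TSPAN14 fell by 0.71 log2 units (SE 0.129, adjusted p = 0.0017) and TSPAN15 by 1.17 (SE 0.182, adjusted p = 0.00063). These became -0.91 and -1.28 without siE7 replicate 1. TSPAN15 was a DEG in all 14 settings tried, the reported one included, while TSPAN14 was a DEG in 0 of them. TSPAN14-AS1, with no values here, overlaps exons of TSPAN14 on the other strand.

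TSPAN4 (chr11:842812-867116, plus strand), known from the migrasomes that moving cells leave behind, had 10.8, 13.4 and 13.2 CPM with siNC. With siE7 it had 5.87, 6.92 and 5.92 CPM. The groups did not overlap. Its log2 fold change was -1.00 (SE 0.170, 95% confidence interval -1.37 to -0.63, adjusted p = 0.0011), which lies on the DEG threshold: TSPAN4 was a DEG in 7 of 14 settings, and was no DEG without siE7 replicate 3, siNC replicate 2 or siNC replicate 3. It stood at -1.02 without siE7 replicate 1. TSPAN3 (chr15:77041404-77083984, minus strand), which binds the myelin protein claudin-11, had 47.6, 45.3 and 45.3 CPM with siNC and 43.1, 40.4 and 40.3 CPM with siE7. All of the siE7 values were below all of the siNC values, but the log2 fold change of TSPAN3 was -0.16 (95% confidence interval -0.40 to 0.08) and did not pass (adjusted p = 0.29). When siE7 replicate 1 was left out TSPAN3 passed at -0.25 (adjusted p = 0.0035), and without composition scaling its fold change was 0.01. An lncRNA gene on the other strand, with no values here, overlaps exons of TSPAN3.

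Levels of different genes were compared per kilobase of annotated exon. With siNC, CD63 was highest at 200.5 ± 8.96 CPM per kilobase (SD, n = 3), followed by CD44 at 122 ± 4.78, CD82 at 38.6 ± 0.449, CD9 at 16.9 ± 1.22 and CD81 at 11.6 ± 0.780. TSPAN14 (7.59 ± 0.139), TSPAN3 (5.48 ± 0.153), TSPAN15 (3.93 ± 0.485), TSPAN1 (3.90 ± 0.261) and TSPAN4 (2.14 ± 0.248) followed on the same scale. Among neighbours in this order only TSPAN15 and TSPAN1 overlapped. With siE7, CD63 stood at 163 ± 21.7 CPM per kilobase, CD44 at 54.9 ± 4.66, CD82 at 17.6 ± 1.67 and CD9 at 12.3 ± 0.473. TSPAN1 moved to the last place at 0.768 ± 0.246 CPM per kilobase, where its range overlapped that of TSPAN4 (1.07 ± 0.101), and the ranges of TSPAN3 and TSPAN14 overlapped as well. These levels take the union of all annotated exons as length, which understates genes with long rarely used exons such as TSPAN14, whose union is 17790 bases.

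CD82 also lost ground within the tetraspanins. Its share of the summed level per kilobase of the 28 tetraspanins in the table was 10.9%, 11.1% and 11.4% in the siNC libraries and 6.37%, 6.61% and 6.90% in the siE7 libraries. The groups were far apart, at 11.1 ± 0.270% and 6.63 ± 0.268% (SD, n = 3). The difference of -4.52 percentage points had an exact two-sided permutation p of 0.10, the smallest that 3 libraries against 3 allow. Without siE7 replicate 1 the difference was -4.39 points. The share needs no scaling between libraries. The same test was run on the shares of all 28 tetraspanins, 17 of which reached this p, and after Benjamini-Hochberg adjustment over them the exact permutation p of CD82 was 0.165. CD151, an integrin-binding tetraspanin outside the 10 genes, had 7.17% to 7.69% with siNC and 8.78% to 11.1% with siE7, so that CD82 ranked above CD151 in every siNC library and below it in every siE7 library. CD63 took 57.8 ± 1.11% with siNC and 61.1 ± 0.807% with siE7. The summed level itself was 347 ± 9.02 CPM per kilobase with siNC and 266 ± 32.2 with siE7.

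The whole tetraspanin family did not move one way. Of 33 listed genes 28 were in the table and 21 were tested. Of these 10 were lower, 2 were higher and 9 did not pass, beside 16.0% lower and 18.0% higher among all tested genes. The median log2 fold change of the 21 was -0.30. Of the 12 tested tetraspanins outside the 10 genes, 4 fell and 2 rose, with a median of -0.01. TSPAN18 fell by 2.70 log2 units (SE 0.420, adjusted p = 0.00064), from 29, 45 and 41 counts to 8, 8 and 4. TSPAN17 had 57.4, 60.7 and 60.9 CPM with siNC and 34.4, 24.6 and 23.5 CPM with siE7, a log2 fold change of -1.12 (adjusted p = 0.00029). These are low counts for TSPAN18 and ample ones for TSPAN17. TSPAN33 and TSPAN5 fell by 0.77 and 0.69 on the log2 scale. TSPAN13 rose by 0.86 (SE 0.193, adjusted p = 0.0055), from 8.91, 8.89 and 8.18 CPM to 11.6, 16.4 and 19.2 CPM. TSPAN12, which promotes Norrin signaling, rose by 1.31 (SE 0.316, adjusted p = 0.0081) at levels under 2 CPM.

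The tetraspanins that did not pass included CD151, next below CD82 in level per kilobase with siNC (26.0 ± 0.868). CD151 had 105, 98.5 and 101 CPM with siNC and 131, 87.4 and 87.1 CPM with siE7, a log2 fold change of 0.00 with a 95% confidence interval of -0.34 to 0.34 (adjusted p = 0.99). The siE7 libraries lay on both sides of the siNC range. CD151 passed as lower without siE7 replicate 1, at -0.28 (adjusted p = 0.00012), so this library decides its call. TSPAN10 had a log2 fold change of 1.01 (adjusted p = 0.063), and TSPAN6, TSPAN9, TSPAN31 and ROM1 lay between -0.12 and 0.19. CD37, CD53, UPK1A, UPK1B, PRPH2, TSPAN2 and TSPAN19 had too few counts to be tested. In the fit without siE7 replicate 1, 17 of 22 tested tetraspanins passed, 14 lower and 3 higher. Calls rose over all genes there: 58.4% of those tested passed, and 29.5% passed as lower.

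**Figure D2:**
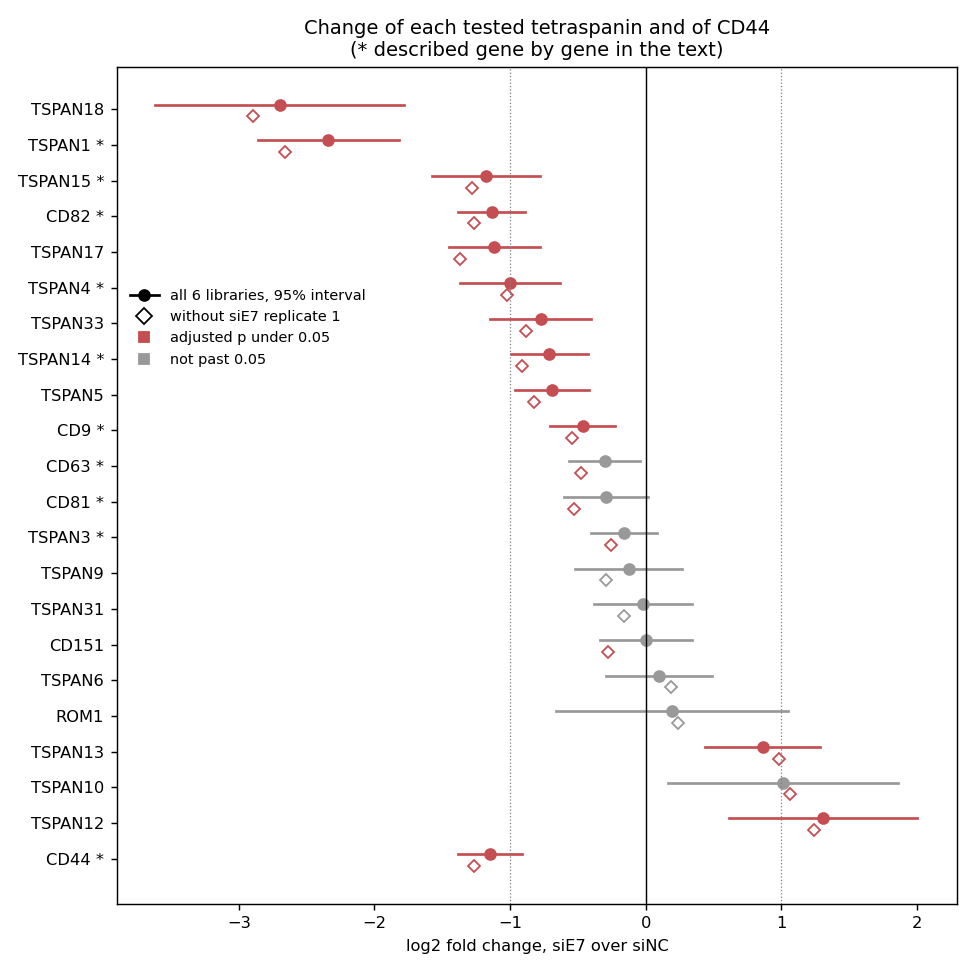
Log2 fold change of siE7 against siNC for the 21 tested tetraspanins and CD44, with 95% confidence intervals, and open diamonds for the fit without siE7 replicate 1. Red marks an adjusted p under 0.05 and dotted lines mark a log2 fold change of 1 in either direction. TSPAN18 at -2.70 and TSPAN1 at -2.34 are lowest, CD82 and CD44 lie at -1.13 and -1.15, CD151 lies at 0.00, and TSPAN12 at 1.31 is highest.

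Beside 16.0% of all tested genes, 5 of the 6 TspanC8 tetraspanins passed as lower. These were TSPAN5, TSPAN14, TSPAN15, TSPAN17 and TSPAN33, while TSPAN10 did not pass. The 6 had a median log2 fold change of -0.74. Their cargo ADAM10, the protease that cleaves Notch receptors and also CD44, had 45.4, 41.6 and 40.6 CPM with siNC and 26.3, 43.8 and 37.2 CPM with siE7. The groups of ADAM10 overlapped, with siE7 replicate 1 lowest of all. Its log2 fold change was -0.25 (95% confidence interval -0.62 to 0.12, adjusted p = 0.28). With siE7 replicate 1 left out, the 5 stayed lower and TSPAN10 passed as higher, at 1.06 (adjusted p = 0.011). In that fit 58.4% of all tested genes passed, 29.5% as lower.

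The partners of the tetraspanin web were mostly lower. Of 17 genes, all tested, 11 passed as lower and 1 as higher, beside 16.0% and 18.0% of all tested genes. The median log2 fold change of the 17 was -0.77, against 0.08 over all tested genes. ITGB1, an integrin chain among the lower genes, lost its call without any 1 siNC library and without composition scaling. Its values there were -0.60 to -0.41 (adjusted p from 0.067 to 0.13). ITGA6 and ITGA3, the laminin-binding integrin chains that associate with CD151 and CD82, fell by 1.70 (SE 0.137, adjusted p = 8.3e-06) and 1.61 (SE 0.137, adjusted p = 1.2e-05) on the log2 scale. EGFR, whose signaling CD82 dampens, had 310, 290 and 295 CPM with siNC and 120, 131 and 120 CPM with siE7. It fell by 1.27 (SE 0.105, adjusted p = 9.1e-06). PTGFRN, a main partner of CD9 and CD81, fell by 0.97 (adjusted p = 0.00015). IGSF8, the other such partner, had a log2 fold change of -0.14 and did not pass (adjusted p = 0.52). Without siE7 replicate 1, IGSF8 passed as lower at -0.43 (adjusted p = 1.6e-06). ADAM17, a protease that sheds EGFR ligands and is held back by CD9, rose by 0.44 (adjusted p = 0.027). ADAM17 passed with all 6 libraries and without siE7 replicate 1, and lost its call without any other 1 library, at 0.36 to 0.46 (adjusted p from 0.082 to 0.12). With siE7 replicate 1 left out, 13 of the 17 partners were lower and 1 was higher, in a fit where 29.5% of all tested genes were lower. The exons of ADAM17 overlap IAH1 on the other strand.

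On the side of CD44, 9 of 17 listed genes of hyaluronan synthesis, breakdown and binding were tested, of which 4 fell and 1 rose, with a median log2 fold change of -0.43. HAS3, a hyaluronan synthase, had 14.4, 14.1 and 14.9 CPM with siNC and 2.43, 2.10 and 2.35 CPM with siE7. The libraries of each group lay close together. HAS3 fell by 2.65 log2 units (SE 0.172, adjusted p = 2.3e-06). CEMIP, which takes part in hyaluronan breakdown, fell by 2.14 (adjusted p = 0.0020) from levels under 2 CPM, and LAYN, the hyaluronan receptor layilin, fell by 0.68 (adjusted p = 0.0028). HYAL3 rose by 0.95 (adjusted p = 0.0080), and its exons overlap other genes. On the link of CD44 to the cytoskeleton 6 genes were listed, not all of which encode linkers. Of these, EZR, MSN and NF2 fell by 0.61, 0.50 and 0.57 on the log2 scale. RDX did not pass at 0.08 (adjusted p = 0.78). The call of MSN was lost without siE7 replicate 2 (-0.44, adjusted p = 0.055) and without siNC replicate 3 (-0.48, adjusted p = 0.058). When siE7 replicate 1 was left out, 5 of these 6 passed, 4 lower and RDX higher at 0.24. Of 6 splicing factors that act on the variant exons of CD44, YBX1 and ESRP2 fell by 0.59 and 0.51 and ESRP1, the epithelial splicing regulator, stood at -0.04 (adjusted p = 0.83). ESRP2 lost its call without siNC replicate 3 (-0.51, adjusted p = 0.0503). Leaving out siE7 replicate 1 gave 6 of 9 hyaluronan genes, 5 lower and 1 higher, and again 2 splicing factors. Of all tested genes 34.0% passed with all 6 libraries and 58.4% without siE7 replicate 1. The 2 of 6 splicing factors are near the first of these shares.

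For the machinery of extracellular vesicles, for which CD63, CD9 and CD81 serve as markers, 4 of 19 tested genes rose and 3 fell, with a median log2 fold change of -0.04. These counts are near the shares of all tested genes, 18.0% and 16.0%. Without composition scaling 7 passed as higher and 2 as lower, with a median of 0.14. TSG101, of the ESCRT-I complex, rose by 0.52 (adjusted p = 0.0071), SDC4 by 0.47 (adjusted p = 0.0061) and FLOT1 by 0.49 (adjusted p = 0.0095). SDC1, a syndecan that binds the adaptor syntenin, fell by 0.66 (adjusted p = 0.0020), STAM by 0.62 and the secretion GTPase RAB27B by 1.15. SDC4 did not pass without siNC replicate 3 (0.44, adjusted p = 0.052), and FLOT1 neither without siNC replicate 1 (0.44, adjusted p = 0.065) nor without siNC replicate 3 (0.49, adjusted p = 0.051). RAB27B lost its call without siE7 replicate 3 or any 1 siNC library, at -1.21 to -1.05 (adjusted p from 0.064 to 0.087). With siE7 replicate 1 left out, 14 of the 19 passed, 6 higher and 8 lower, in a fit where 58.4% of all tested genes passed.

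Among 8 tested genes reported to act on transcription of CD82, TFAP2A fell and JUNB rose, and the median log2 fold change was -0.16. TFAP2A, which encodes the transcription factor AP-2 alpha, had 133, 138 and 145 CPM with siNC and 54.5, 57.4 and 51.5 CPM with siE7. It fell by 1.35 log2 units (SE 0.109, adjusted p = 8.3e-06). JUNB, a subunit of AP-1, had 139, 141 and 135 CPM with siNC and 229, 172 and 183 CPM with siE7. It rose by 0.50 (SE 0.125, adjusted p = 0.011). For TFAP2A and JUNB the groups were separate, and for JUNB siE7 replicate 1 was the highest. JUNB lost its call when any 1 siNC library was left out, at 0.47 to 0.50 (adjusted p from 0.051 to 0.065). With siE7 replicate 1 left out, 6 of the 8 passed, 5 lower and 1 higher. Beside these, 58.4% of all genes tested in that fit passed, 29.5% as lower. With all 6 libraries the share was 34.0%, and the 2 of 8 regulators are not above it.

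Promoter sequences from RefSeq (GRCh38.p14), 250 bases before to 50 after a start, were at hand for 8 of the 10 genes. Those of the 4 downregulated DEGs with a single entry follow, from 5′ to 3′ on the plus strand, to show the letters beside the change of TFAP2A. Capitals mark GCCNNNGGC, an AP-2 motif, and TGANTCA, an AP-1 motif, was searched in the same windows. Both motifs read alike on both strands and were chosen after the values of TFAP2A and JUNB were seen. The windows are chr11:44565413-44565712 for CD82, chr11:35138921-35139220 for CD44, chr1:46174837-46175136 for TSPAN1 and chr10:69451215-69451514 for TSPAN15.
CD82: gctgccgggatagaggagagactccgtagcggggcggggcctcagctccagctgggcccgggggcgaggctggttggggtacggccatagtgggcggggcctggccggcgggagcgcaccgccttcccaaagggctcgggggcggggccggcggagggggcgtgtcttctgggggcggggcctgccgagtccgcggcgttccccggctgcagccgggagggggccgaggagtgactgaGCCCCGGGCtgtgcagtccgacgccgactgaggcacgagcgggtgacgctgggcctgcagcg
CD44: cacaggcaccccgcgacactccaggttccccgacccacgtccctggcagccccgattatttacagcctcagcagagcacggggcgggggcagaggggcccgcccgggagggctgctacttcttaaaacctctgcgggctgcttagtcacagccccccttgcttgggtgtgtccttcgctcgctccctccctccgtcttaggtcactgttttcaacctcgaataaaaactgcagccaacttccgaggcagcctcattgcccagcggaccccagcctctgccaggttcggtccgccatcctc
TSPAN1: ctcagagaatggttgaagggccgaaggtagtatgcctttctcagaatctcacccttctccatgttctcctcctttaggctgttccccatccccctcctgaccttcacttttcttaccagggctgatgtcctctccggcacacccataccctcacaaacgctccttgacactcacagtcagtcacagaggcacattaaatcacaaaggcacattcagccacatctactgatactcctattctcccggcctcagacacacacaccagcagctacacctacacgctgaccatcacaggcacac
TSPAN15: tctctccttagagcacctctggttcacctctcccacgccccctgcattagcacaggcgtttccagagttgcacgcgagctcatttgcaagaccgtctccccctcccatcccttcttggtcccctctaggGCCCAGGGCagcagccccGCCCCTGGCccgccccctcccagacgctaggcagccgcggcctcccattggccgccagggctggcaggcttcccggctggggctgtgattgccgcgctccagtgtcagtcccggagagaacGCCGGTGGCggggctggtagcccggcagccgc

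The CD82 window held 1 AP-2 match, which began 12 bases before the start, and its GC content was 76.7%. TSPAN15 held 3 AP-2 matches, beginning 121 and 103 bases before and 18 bases after the start, at a GC content of 69.0%. The windows of CD44 and TSPAN1, with a GC content of 63.3% and 52.0%, held no match, and none of the 4 held the AP-1 letters. Of the genes with several entries, not printed, CD63, TSPAN4 and TSPAN14 also held AP-2 matches and CD9 held none. CD63, which did not pass the test, also held an AP-1 match. Among all 35116 promoters of the same length 23.2% held the AP-2 motif and 7.71% the AP-1 motif. These shares were not matched for GC content. A match describes the letters only.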

How the data were processed

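RNA-seq was analysed for 6 libraries of SCC-9 cells, 3 with siE7 and 3 with siNC, grouped by their titles. The authors deposited whole-number read counts per gene without normalization. The submitters' processing notes name HISAT2, DESeq2 and GRCh38. The counting tool, the annotation and the use of strand in counting are not given in the sources used here. Exons of CD151, TSPAN10, TSPAN18, TSPAN31, ROM1, ADAM17, HAS3, CEMIP, JUNB, ESRP2 and TSG101 overlap protein-coding genes on the other strand. Whether reads of those neighbours entered their counts was not tested. Counts were filtered by filterByExpr, scaled by TMM and compared with edgeR 4.0.16 (quasi-likelihood F-test with robust dispersions, R 4.3.3), adjusted by Benjamini-Hochberg over 14661 genes. A DEG had an adjusted p under 0.05 and a log2 fold change beyond 1, as in the study. The test was checked on simulated counts. Positions and exon lengths come from GENCODE 44 on GRCh38, matched for 25283 of 25349 identifiers. The depth, at least 25608192 counts per library, leaves little counting error for most of the 10 genes and more for TSPAN1. DESeq2 1.42.0, other scalings and filters, a replicate block and each library left out were alternatives. Tables and figures were made with pandas 2.3.3, scipy 1.17.1 and matplotlib 3.10.9.

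The genes and lists were chosen with earlier results of these data known. Named genes are MKI67, the 10 genes, all tested tetraspanins, up to 3 genes with the smallest p in each direction of each other list, list genes named as background, and the 3 genes most like CD82. DCN, COL1A1, ESRP1, ITGB1 and the squamous markers were named after their values were seen. Replicate numbers pair no samples by the labels, and deviations of same-numbered libraries correlated at -0.0393, -0.0205 and -0.0521, so they were not used to pair.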

Additional observations from a re-analysis of the deposited data

How the results depend on the processing

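Of 281 recomputed values, 265 kept their direction and side of the threshold, or for counts stayed within 1.5 times. Without composition scaling the median of all tested genes rose by 0.17 on the log2 scale, 2 of the 10 genes were DEGs in place of 5, and TSPAN3 turned to 0.00718. The causes were not tested. Leaving out 1 library at a time gave 2 to 5 passing genes around the link of CD44 to the cytoskeleton and 1 to 2 of the CD44 splicing factors. The vesicle machinery had 3 to 14 (14 without siE7 replicate 1, 4 without siNC replicate 1 and 3 without siNC replicate 3). The regulators of CD82 had 1 to 6 (6 without siE7 replicate 1, and 1 without siNC replicate 1, 2 or 3). The splicing factors reached 1 without siNC replicate 3 and the genes around the CD44 link 5 without siE7 replicate 1. The share of CD82 differed by -5.09 to -4.37 percentage points over its alternatives. A replicate block changed no call of the 10 genes, with 7 passing and CD82 at -1.14, while TSPAN4 was no DEG under it. Depth limits TSPAN10, TSPAN12, TSPAN18 and ROM1, with at most 71 counts per library, and TSPAN1 with siE7.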

Other observations

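The genes whose level followed that of CD82 most closely over the 6 libraries were SPARC, SHROOM3 and COTL1. Their Pearson r with CD82 on log2(CPM + 1) was 0.9996, 0.9994 and 0.9993. SPARC encodes a matricellular protein, SHROOM3 an actin-binding protein of apical constriction and COTL1 a coactosin-like actin-binding protein. Their log2 fold changes were -1.46, -1.46 and -1.50. The libraries form groups that differ in many genes, so such values are common: 1101 genes had an r over 0.95 with CD82.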
